A study of Mus musculus with 4 samples.

Results

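The Sidekick genes Sdk1 and Sdk2 and the DSCAM genes Dscam and Dscaml1 carried 56 of the 35505 summits of TOP2B cleavage complexes that lay on the 19 autosomes and X. The members are 4 of 21631 protein-coding genes, and a summit was assigned to a member when it lay in the gene's span or within 10 kb of it. The group was chosen by summit positions in this list, and Sdk1 in it for many summits relative to its length, so counts and folds are given as descriptions and are not tested. Sdk1 held 28 summits, Dscam 13, Dscaml1 8 and Sdk2 7.

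The data come from cultured wild-type mouse cortical neurons, prepared from Swiss-Webster embryos at embryonic day 16. TOP2B, a type II topoisomerase, passes one DNA duplex through a double-strand break and stays covalently attached to the broken ends while they are open. All cultures received etoposide, which keeps these complexes from closing, at 50 µM for 30 min, and no untreated group is among the samples. The labels list 2 libraries from native chromatin immunoprecipitation (ChIP) of TOP2B, with 2 from input DNA, and do not say whether they came from separate cultures. The values are a single list of peaks pooled by the authors, so no value has a replicate error, and library depths are unknown. The list holds no expression values, so the labelled cell type could not be checked against markers. Dissociated embryonic cortex can hold cells other than neurons.

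Sidekick and DSCAM proteins are immunoglobulin superfamily adhesion molecules of neurons. Each binds its own kind on a facing membrane, and in the retina they guide processes to particular synaptic layers. DSCAM also keeps processes of like cells apart in the mouse retina, and has been described as a receptor for netrin. The cytoplasmic ends of both families bind MAGI scaffold proteins at synapses. All 4 genes are long, and TOP2 enzymes are known to relieve the twisting strain that builds up as long genes are transcribed.

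In the RefSeq gene table of build GRCm38.p6, Sdk1 (gene ID 330222) spans chromosome 5 from 141241497 to 142215586, or 974.1 kb. Sdk2 (237979) spans chromosome 11 from 113776374 to 114067029, or 290.7 kb. Dscam (13508) spans chromosome 16 from 96587452 to 97171113, or 583.7 kb. Dscaml1 (114873) spans chromosome 9 from 45427433 to 45753713, or 326.3 kb. The promoter table places Sdk1 on the plus strand and Sdk2 and Dscam on the minus strand. Dscaml1 is described from its lower-coordinate end.

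The start of Sdk1 was the only start site among the 3 members of the promoter table with a summit within 1 kb, against 4.80% of the 17274 protein-coding genes of that table. The peak at chr5:141240737-141240939 had its summit at 141240771, which lies 726 bp outside the gene span and 763 bp upstream of the start site in the promoter table. Its fold over control, the ratio that the authors' caller gives at the summit, was 3.29. That ratio is taken after 1 is added to both the fragment count and the control level. The summit nearest the Sdk2 start lay 10.9 kb inside the gene, and the nearest within Dscam lay 82.1 kb from its start site. Outside Dscam, the nearest on the start side was 53.0 kb from the gene. The sequences below are the parts of the RefSeq promoter windows (GRCm38.p6) of the 2 Sidekick genes that lie outside the gene spans, shown because Sdk1 has a peak beside its start and Sdk2 has none. They are chr5:141241284-141241496 on the plus strand and chr11:114067030-114067279 on the minus strand, 213 and 250 bases long. Capitals mark GGGCGG (GC box) and CCAAT matches on either strand.
Sdk1: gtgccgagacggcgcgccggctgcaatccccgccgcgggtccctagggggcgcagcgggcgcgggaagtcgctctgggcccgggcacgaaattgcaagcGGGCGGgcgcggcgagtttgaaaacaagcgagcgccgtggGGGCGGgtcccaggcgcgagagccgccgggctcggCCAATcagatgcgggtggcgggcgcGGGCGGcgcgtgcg
Sdk2: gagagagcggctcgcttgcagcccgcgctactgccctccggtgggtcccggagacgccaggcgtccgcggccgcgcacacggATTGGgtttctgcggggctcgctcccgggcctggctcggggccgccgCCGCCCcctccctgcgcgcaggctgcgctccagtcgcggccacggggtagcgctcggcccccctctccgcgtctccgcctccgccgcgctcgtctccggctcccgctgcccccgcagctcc

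Both upstream stretches are rich in G and C and hold a CCAAT match, and Sdk1 has more GC boxes, 3 against 1 in the letters shown. Over the whole windows of 300 bp (250 bp before to 50 bp after the start), G+C content was 78.3% at Sdk1, 76.7% at Sdk2 and 70.0% at Dscam, against a median of 52.7% over 32851 windows. CpG pairs numbered 54, 41 and 26, against a median of 7. No deposited peak overlapped any of these 3 windows, as was the case for all but 400 (1.22%) of the 32851. The Sdk1 peak ended 344 bp before its window began, so the sequence under it was not analysed here.

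Of the motifs searched on both strands of the whole windows, GCGNGGGCG (EGR) had 2 matches at Sdk1, both overlapping a GC box, and none at Sdk2 or Dscam. That motif is in 5.55% of all windows. The motif is made mostly of G and C, and the G+C content of the Sdk1 window exceeded that of 98.2% of windows. The share among windows of like G+C content was not counted. TGANTCA (AP-1, in 7.81% of windows), TGACGTCA (CRE, in 1.79%) and the CTCF consensus (in 2.43%) had no match in the 3 windows. A GC box is in 35.7% of all windows and a CCAAT box in 37.4%, and Dscam has neither. The last 2 motifs were chosen after the sequences had been seen.

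Sdk1 held the most summits of the 4 genes and also the most per length. Its 28 summits gave 2.82 per 100 kb of span and flanking 10 kb (95% exact Poisson interval 1.87 to 4.07). Dscaml1 followed with 2.31 (1.00 to 4.55), Sdk2 with 2.25 (0.906 to 4.64) and Dscam with 2.15 (1.15 to 3.68). These intervals cover counting error only, and all 4 overlap, so the order of the genes is not resolved. Neighbours in the order, and Sdk1 and Dscam at its ends, did not differ beyond their intervals.

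With all peaks counted, each gene lay above the middle of long genes. The median over 2313 autosomal protein-coding genes of at least 100 kb was 1.45 summits per 100 kb, with quartiles of 0.818 and 2.22. The density of Sdk1 exceeded that of 85.7% of these genes, Dscaml1 77.1%, Sdk2 75.9% and Dscam 73.5%. The intervals of Sdk2, Dscam and Dscaml1 include the median of 1.45, and Sdk1 was chosen for its density. The place of Sdk2 turned with stricter peaks. With q of 0.05 or less it had no summit, so 0% of long genes lay below it. Every long gene without such a summit shares that place, and 56.2% of long genes had one. With folds at or above the median of the list, 22.9% lay below Sdk2. Dscam exceeded 54.0% of long genes at the q limit and 60.1% at the fold limit. At least 1 summit was present in all 4 members, which says little at this length, since 93.3% of the genes of at least 100 kb and 53.4% of all protein-coding genes had one. By number alone, Sdk1 was the fifth of all autosomal protein-coding genes.

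**Figure D1:**
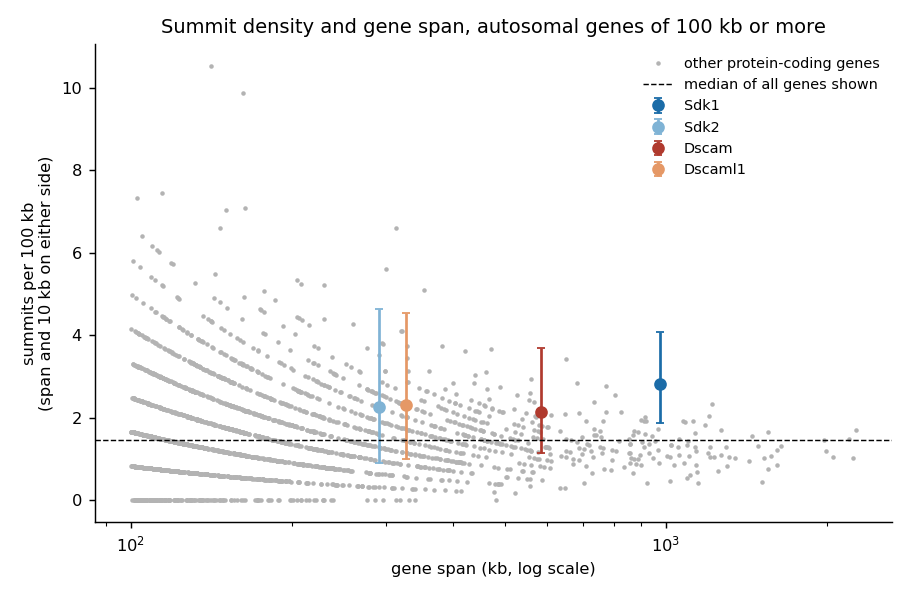
Summits per 100 kb of gene span and flanking 10 kb (vertical axis) against gene span in kb (log axis) for 2313 autosomal protein-coding genes of at least 100 kb; bars on the 4 coloured members are 95% exact Poisson intervals and the dashed line is the median, 1.45. Sdk1, at 974.1 kb and 2.82 per 100 kb, lies above every gene of its length or longer.

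Sdk1 had the highest density among the longest genes. Of the 56 autosomal protein-coding genes at least as long as Sdk1, itself included, none had a higher density. The median of those genes was 1.17 summits per 100 kb. The next highest density among them lay within the Sdk1 interval of 1.87 to 4.07, so the first place is not resolved. Sdk1 was also chosen for many summits relative to its length. Shorter genes reached higher values, up to 10.5 per 100 kb among those of at least 100 kb, where a single summit weighs more.

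Among the genes nearest to Sdk1 in span and summit count, by the distance of the 2 values on log2 scales, were Ccser1 (25 summits in 1203 kb) and Dab1 (22 in 1125 kb), the last an adaptor of reelin signalling. Both were longer than Sdk1 and held fewer summits. Those nearest to Dscam were Cacna1c (13 summits), a calcium channel gene, Smyd3 (14) and Unc5d (12), a netrin receptor gene. Dscaml1 was nearest to Dner, Wdpcp and Ulk4 with 8 summits each, and Sdk2 to Fndc3b, Shroom3 and Galnt18 with 7 each.

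**Figure D2:**
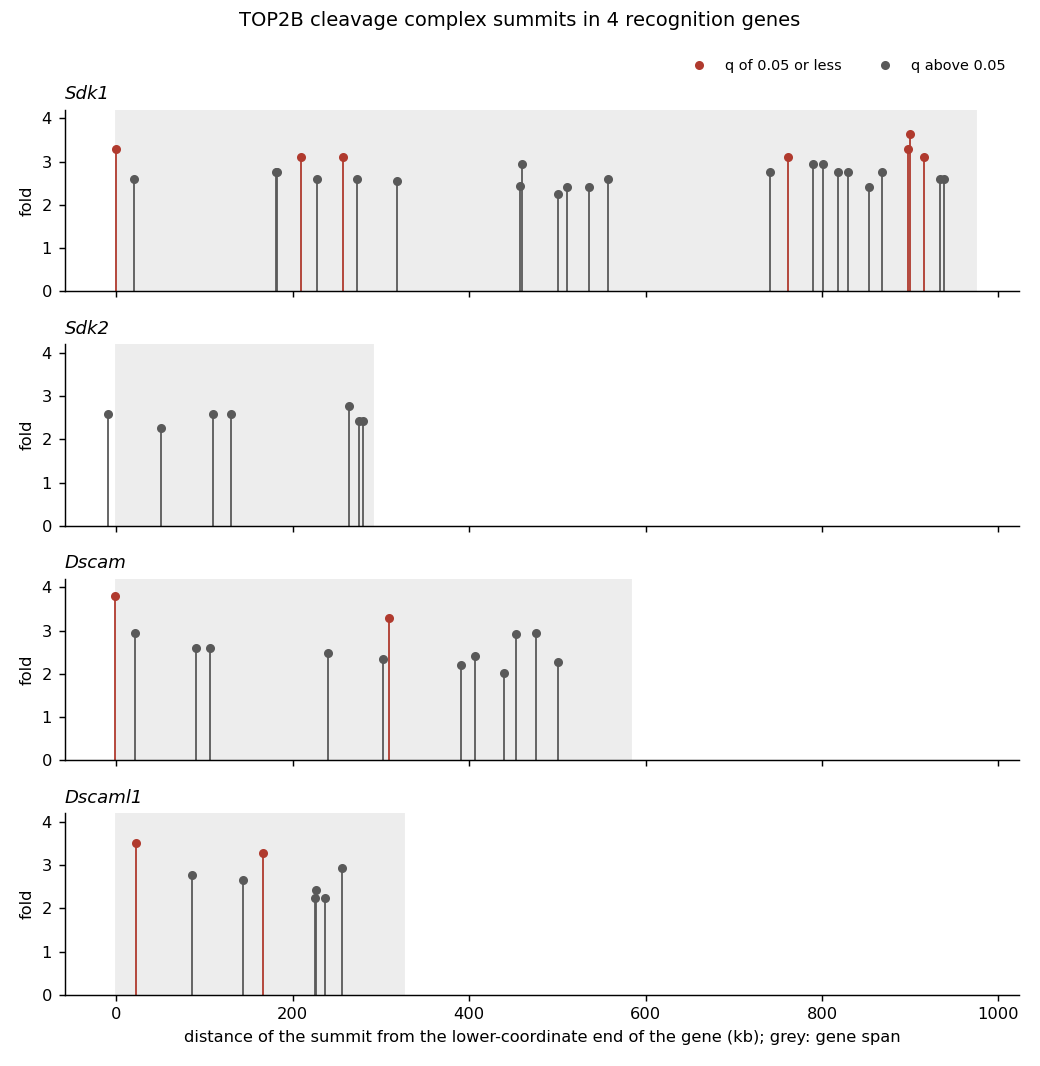
Fold over control (vertical axis, ratio) of each of the 56 summits against its distance in kb from the lower-coordinate end of the gene (horizontal axis), with the gene span in grey and summits of q 0.05 or less in red. Sdk1 shows 4 stretches parted by gaps of 139.3 to 184.3 kb, and Sdk2 has no red summit.

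Summits in Sdk1 fell into 4 stretches, parted by 3 gaps of more than 100 kb among its 27 distances. Gaps of that length are common, at 21.9% of distances over the list against 9.62% in the 4 members. The first stretch held 2 summits, from 726 bp before the gene to 19.6 kb inside it. After 160.9 kb without a summit, 7 lay between 180.5 and 318.0 kb from the gene start. A second gap of 139.3 kb led to 6 summits between 457.4 and 557.3 kb, and the third, of 184.3 kb, to 13 summits between 741.6 and 938.3 kb.

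The last of these stretches, in the downstream part of the gene, held the most summits. It was also the longest, with 13 in 196.7 kb, against 6 in 99.9 kb in the third and 2 in 20.3 kb in the first. With the gene divided into 5 equal parts from its start, Sdk1 held 3, 5, 6, 2 and 11 summits. The middle stretch of 6 held no summit with a q (the authors' adjusted p-value) of 0.05 or less and had a median fold of 2.43. The last stretch held 4 such summits with a median fold of 2.77. Over the whole list, 23.4% of summits had such a q, and the median fold was 2.77. The stretches were read from these same summits, and the difference between them was not tested. No summit lay in the final 35.8 kb of the gene, and the next summit beyond its end was 19.1 kb away.

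The strongest summit of Sdk1 lay in the last stretch, 899.5 kb from the gene start. This peak, chr5:142140805-142141048, had a fold of 3.63, with 20 ChIP fragments over a control level of 4.78 and a q of 0.00437. Its fold exceeded that of 97.1% of all summits. Only 1.91 kb upstream, the peak chr5:142138936-142139173 had 18 fragments, a fold of 3.29 and a q of 0.0208. The long noncoding RNA gene Gm52792 lies within Sdk1, 4.33 kb from the nearer of the pair, and neither summit is inside it.

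The peak beside the Sdk1 start had the same 18 fragments and fold of 3.29. Next in the gene were summits of 17 fragments and a fold of 3.11, at 209.8 and 256.6 kb from the start among others, with a q of 0.0390. The widest peak of Sdk1, 456 bp, spanned chr5:142031056-142031511 with a fold of 2.94 and 16 fragments. It was the only 1 of the 56 member peaks of 400 bp or more, against 1127 of the 35505 in the list. None of the 28 Sdk1 summits lay inside any of the 4 small genes listed within its span, which are Gm6433, Gm16035, Gm24131 and Gm52792. These are 0.107 to 26.5 kb long in a gene of 974.1 kb, so this count says little.

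Dscam, the DSCAM gene on chromosome 16, held the summit of highest fold among the 4 genes, beyond its downstream end. The peak chr16:96586233-96586464 had a fold of 3.80, with 21 fragments against a control level of 4.78 and a q of 0.00162, and its summit lay 1.12 kb outside the gene. Its fold exceeded 98.8% of all summits. The nearest other listed gene, Pcp4, was 60.5 kb from that summit. The second, chr16:96896509-96896715, lay 274.5 kb from the gene start, with 18 fragments, a fold of 3.29 and a q of 0.0208.

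These 2 were the only Dscam summits with a q of 0.05 or less. The peaks chr16:96608755-96608964 and chr16:97063583-97063796 tied for the third place by fold, each with 16 fragments, a fold of 2.94 and a q of 0.0675. Another Dscam summit, of fold 2.92 over a higher control level of 5.17, had more fragments, 17, and a lower q, 0.0542. The peak nearest the start, chr16:97088593-97088803, had 13 fragments and a fold of 2.27, so the first 82.4 kb of the gene held no summit. From its start, 5 equal parts of Dscam held 2, 4, 3, 0 and 3 summits. The widest Dscam peak, chr16:97026162-97026529 of 368 bp, had the lowest fold of any member summit, 2.01, with 14 fragments over a control level of 6.46. Of the 2 long noncoding RNA genes within Dscam, Gm32432 contained 2 summits, including that of fold 3.29, and Gm32509 none.

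Dscaml1, the paralogue of Dscam, had its strongest peak 22.3 kb inside its lower-coordinate end. This peak, chr9:45449600-45449936, was also its widest, at 337 bp. It held 23 fragments, the highest pileup of the 56 summits, over a control level of 5.82, which gave a fold of 3.52 and a q of 0.00174. The control level here was above the common one, so the summit ranked below that of Dscam by fold and above it by fragments. The peak chr9:45593968-45594219 followed with 18 fragments and a fold of 3.29, and chr9:45683271-45683478 with 16 and 2.94. From the lower end, 5 equal parts of the gene held 1, 1, 2, 4 and 0 summits. No summit lay in the 70.4 kb before the upper end or within 10 kb of either end on the outside.

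Sdk2, the Sidekick paralogue on chromosome 11, had 7 weak summits and none with a q of 0.05 or less. Its folds ran from 2.27 to 2.77 and its pileups from 13 to 15 fragments. The highest, chr11:114040308-114040502, had a fold of 2.77 and a q of 0.110, and lay 26.6 kb from the gene start inside the long noncoding RNA gene Gm51929. By fold it was followed by chr11:113766958-113767212 and chr11:113906223-113906425, both with a fold of 2.59, 14 fragments and a q of 0.177. Another Sdk2 summit, with a fold lower only beyond these digits, had 15 fragments over a control level of 5.17 and a q of 0.140. Of the summits in the Sdk2 span, 3 lay in the first of 5 equal parts from the start, 0 in the next and 1 in each of the others. The widest Sdk2 peak, chr11:114050751-114051119 of 369 bp, had 13 fragments, and the summit nearest the start, in chr11:114056034-114056223, had 14. The other genes within Sdk2, Gm39468 and Gm51930, held no summit.

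**Figure D3:**
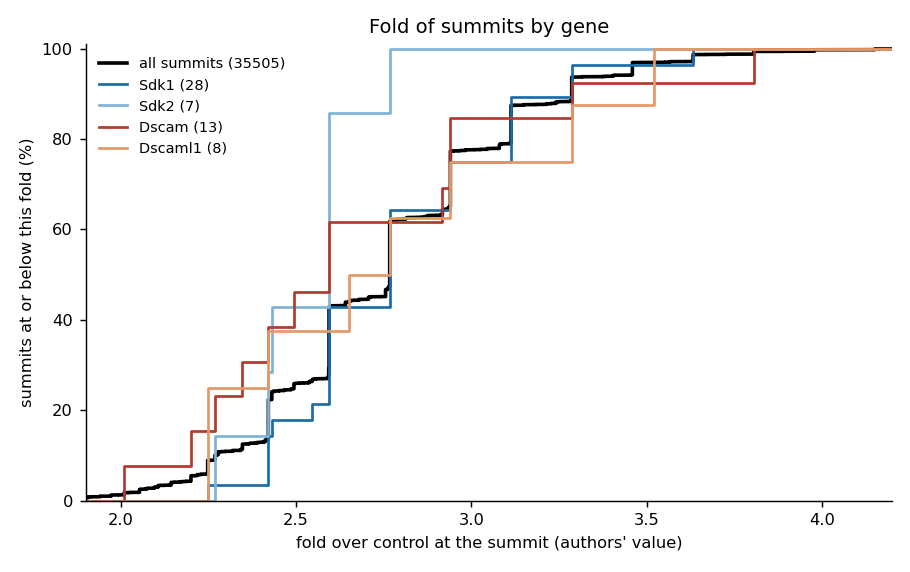
Share of summits (vertical axis, percent) at or below each fold over control (horizontal axis, ratio), for each gene and for all 35505 summits (black). The Sdk1 curve runs close to the black curve, and the Sdk2 curve reaches 100% at a fold of 2.77.

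Folds at the member summits lay close to those of the whole list. The median fold was 2.59 over the 56 summits (range 2.01 to 3.80) and 2.77 over all 35505. By gene, the median was 2.77 in Sdk1, 2.71 in Dscaml1 and 2.59 in both Dscam and Sdk2. Pileups at member summits had a median of 15 fragments, which was also the median of the list. Folds come in steps because a pileup is a small whole number set over a common control level of 4.78, which applied to 42 of the 56 summits (75%) and to 71.1% of the list. A fold of 2.59 against 2.77 at that control level is a difference of 14 against 15 fragments.

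A q of 0.05 or less was found at 11 of the 56 summits (19.6%), against 23.4% of all summits. Sdk1 had 7 of 28 (25%, 95% exact Clopper-Pearson interval 10.7 to 44.9), Dscam 2 of 13 (15.4%, 1.92 to 45.4) and Dscaml1 2 of 8 (25%, 3.19 to 65.1). Sdk2 had 0 of 7, with an upper limit of 41.0%. All of these intervals hold the share of the list. At least 1 such summit was present in 3 of the 4 genes, against 56.2% of genes of at least 100 kb and 21.3% of all protein-coding genes. The q of the other 45 summits ran from 0.0542 to 0.443, so each of them is weak evidence by itself.

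Neighbouring summits within the genes were 22.0 kb apart at the median, over 52 distances, against 41.4 kb over the list. Distances within a gene cannot exceed its length, which limits them most in the smaller members. The medians were 19.5 kb in Sdk1, 23.2 kb in Dscaml1, 23.9 kb in Dscam and 39.5 kb in Sdk2. Pairs closer than 5 kb numbered 4 in Sdk1 and 1 in Dscaml1, or 9.62% of the distances, close to the 9.20% of the list. In Sdk1, 17 of 27 distances were 25 kb or less, and the share of the list at that limit was not counted. Short distances go with a high density, for which Sdk1 was chosen.

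**Figure D4:**
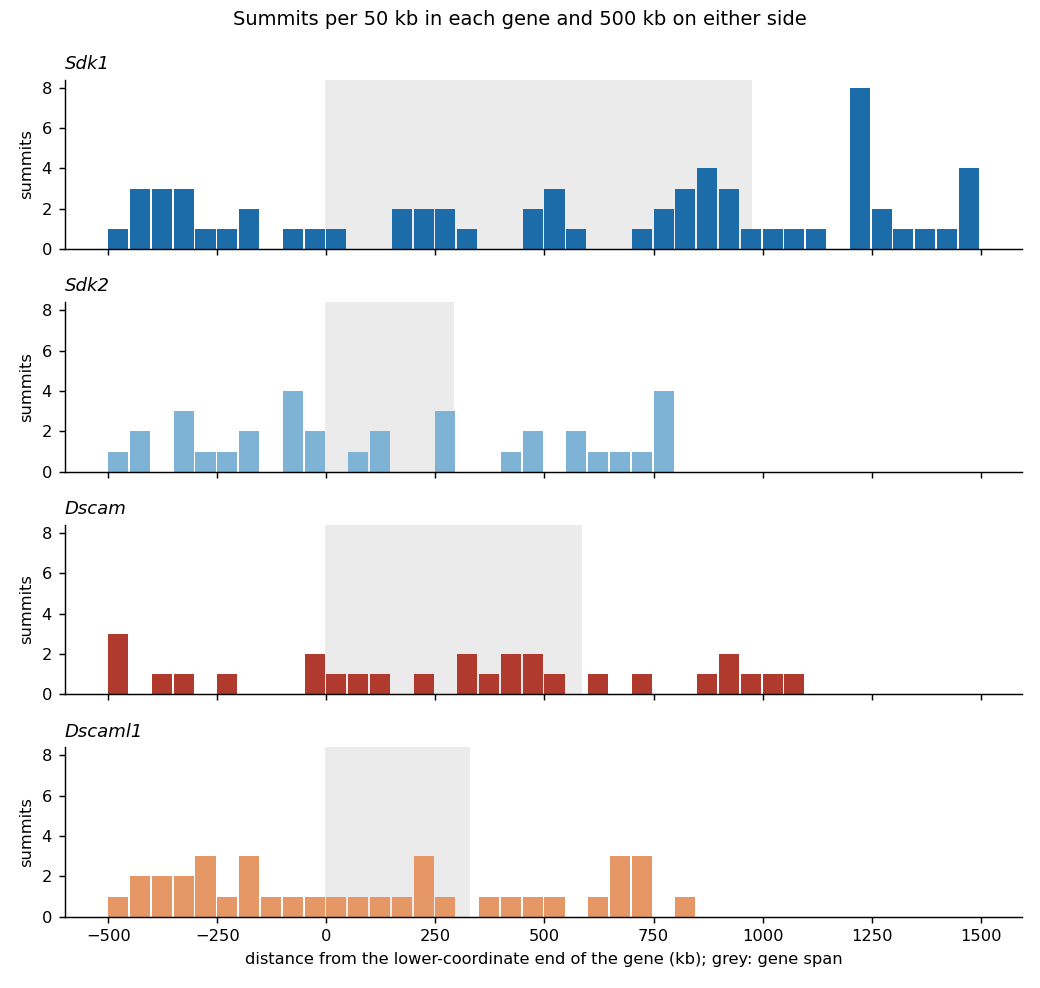
Summits per bin of 50 kb (vertical axis, count) along each gene and about 500 kb on either side, against distance in kb from the lower-coordinate end, with the gene span in grey. Bins beside Sdk1 hold as many summits as bins within it, up to 8 in a bin beyond its upper end.

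The surroundings of Sdk1 were as dense in summits as the gene. The span of Sdk1 held 2.77 summits per 100 kb, while the 500 kb below it held 3.20 and the 500 kb above it 3.40. The ratio of gene to flanks was 0.840 (95% interval from counts 0.486 to 1.44). With only 200 kb on either side the flanks held 2.00 per 100 kb and the ratio was 1.39 (0.612 to 3.53), and both intervals include 1. Flanks as dense as those of Sdk1 were uncommon, since 97.6% of the 2313 long genes had sparser ones, with a median of 1.5. On the upper side, 8 of the 17 summits fell in a single bin, chr5:142441497-142491496, over Foxk1, Ap5z1 and Radil, named here after the values were seen.

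Sdk2 and Dscaml1 also lay in dense surroundings, and Dscam did not. The flanking 500 kb on either side held 2.80 summits per 100 kb at both Sdk2 and Dscaml1, above 93.8% of long genes, and 1.60 at Dscam, above 51.6%. The spans themselves held 2.06, 2.45 and 2.06. Ratios of gene to flanks were 0.737 (0.250 to 1.81) at Sdk2, 0.876 (0.345 to 1.97) at Dscaml1 and 1.28 (0.555 to 2.89) at Dscam. Among all long genes, 48.1% were denser than their flanks. Whether the regional density accounts for the counts of Sdk1, Sdk2 and Dscaml1 was not tested. With 200 kb on either side the Dscam ratio was 2.06 (0.623 to 8.75), from 4 summits in the flanks.

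The summits near the limit of 10 kb used for membership were few. Sdk2 gained 1 summit 9.32 kb beyond its downstream end, and the next outside was 27.9 kb away. Dscam and Sdk1 gained 1 each, 1.12 kb and 0.726 kb outside. Beyond the limit, the closest summits were 16.1 kb below Dscaml1 (fold 2.77) and 19.1 kb above Sdk1 (fold 2.42).

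Genes listed here as partners of Sidekicks and DSCAMs varied widely. The list held MAGI scaffolds, netrin with its receptors, and other genes such as Robo1 and Pak1. It was set by symbol, and these data measure no interaction between the proteins. Of 14 such genes, 11 of them at least 100 kb long, 13 had a summit (92.9%), close to the 93.3% of genes of that length and above the 53.4% of all protein-coding genes. Their median density was 1.68 per 100 kb, against 0.987 over all protein-coding genes. The highest were the netrin receptor genes Unc5a, with 7 summits and 8.66 per 100 kb, and Unc5b, with 6 and 6.74, followed by Neo1, which encodes neogenin, with 6 and 3.30. Among the scaffold genes, Magi3 had 5 summits (2.20 per 100 kb), Magi2 20 (1.33) and Magi1 5 (0.796). Netrin itself, Ntn1, had 5 summits (2.53), and its receptor gene Dcc 6 in 1098 kb (0.537). Draxin, a repulsive guidance gene, had none. Over the 11 partner genes of at least 100 kb, the median was 1.33, below each of the 4 members and below the 1.45 of all autosomal genes of that length.

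**Figure D5:**
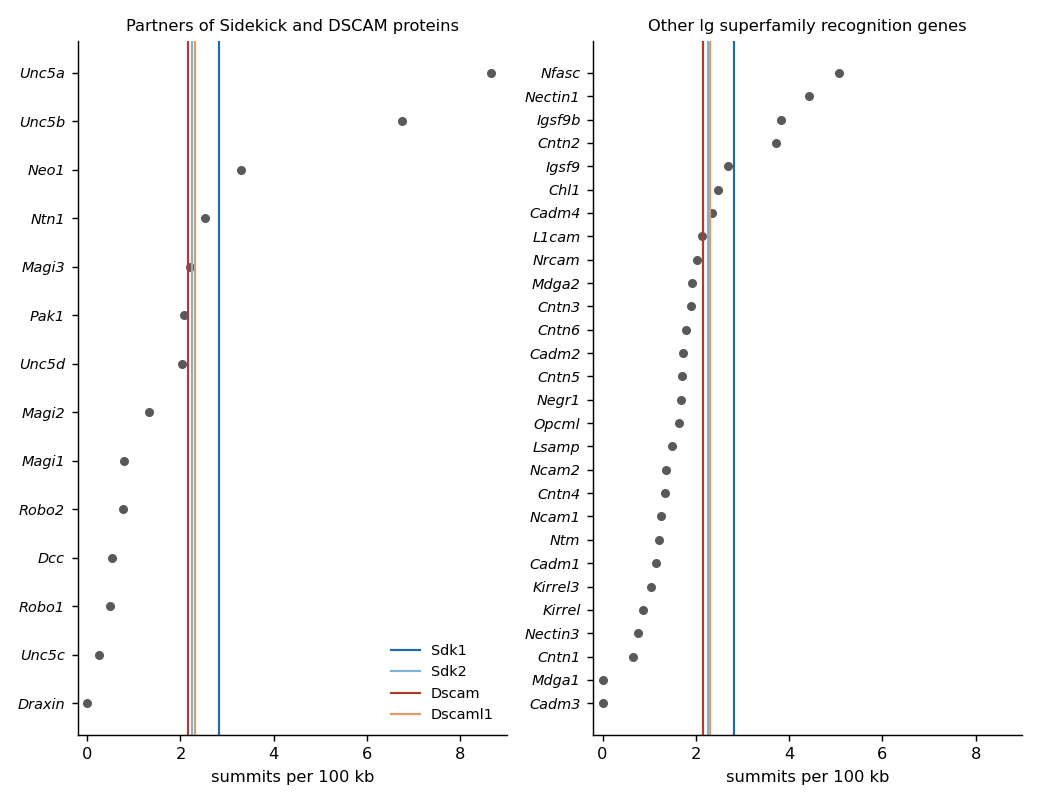
Summits per 100 kb (horizontal axis) of 14 partner genes (left) and 28 other immunoglobulin superfamily recognition genes (right), with the 4 members as vertical lines. The genes above the Sdk1 line, 3 on the left and 4 on the right, include shorter genes such as Unc5a and Nectin1.

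Other recognition genes of the immunoglobulin superfamily were mostly less dense than Sdk1. Of 28, 26 had a summit (92.9%), against 93.3% of genes of at least 100 kb and 53.4% of all protein-coding genes, with a median of 1.69 per 100 kb. Nfasc, which encodes neurofascin, had 10 summits (5.07 per 100 kb), Nectin1, a nectin adhesion gene, 4 (4.43), and Igsf9b, an adhesion gene of inhibitory synapses, 3 (3.82). Over the 19 genes of at least 100 kb in this list the median was 1.65, and only Nfasc exceeded Sdk1. Cadm2 (17 summits, 1.73 per 100 kb), Ntm (12, 1.21) and Cntn4 (14, 1.34) are near Sdk1 in size and had lower values. They were picked after their values were seen. Sdk1 was chosen for its many summits relative to its length and exceeded 85.7% of all long genes. Lower values in this list therefore set no contrast particular to adhesion genes.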

How the data were processed

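Peaks came from a list of 35539 entries without a header that the authors pooled over libraries; 34 entries on scaffolds were left out. Per the submitters' processing notes, FastQC, Trimmomatic, BWA, SAMtools and MACS2 were used, with builds mm10 and GRCm38.p6; the sources used here do not give versions, caller settings or duplicate handling. The fold is a deposited ratio of pileup over control, with 1 added to both. Each entry's −log10 p and its −log10 q were likewise deposited by the authors. The deposited display score was not used. Positions were turned into 1-based coordinates.

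The summit was the interval start plus the deposited offset. Genes and promoter windows came from RefSeq tables of GRCm38.p6, which hold no exons. The 4 members and 42 further symbols all matched the gene table, and 3 members the promoter table. Fragments and control level were rebuilt from the deposited fold and p, within 0.002 of −log10 p, with a unique whole number at all 56 member summits. Counting and rebuilding were tested on simulated data. Windows were 10 kb, long genes had a span of at least 100 kb, and density flanks were 500 kb. Intervals cover counting error only.

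Named genes followed a fixed rule: members, genes overlapping them, the 3 densest genes of each list with at least 3 summits, the 3 nearest genes in log2 span and count, and the strongest, widest and start-nearest peaks. Others (MAGI, netrin, Dcc, Draxin, Pcp4, Cadm2, Ntm, Cntn4) were named after their values were seen. An item that the rule selects is not reported here. Members and lists were chosen with earlier results of these data known. Python 3.11.15, pandas 2.3.3 and scipy 1.17.1 were used.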

Additional observations from a re-analysis of the deposited data

How the results depend on the processing

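Of 70 values computed under other settings for 14 results, 60 stayed within 1.5 times the count or within the interval of the main value. The exceptions came from stricter peak lists, which hold fewer peaks by construction. With q of 0.05 or less, Sdk1 held 7 summits, Sdk2 0, Dscam 2 and Dscaml1 2. The share of long genes with a lower density than Sdk2 fell to 0, as for any gene without such a summit. With folds at or above the median of the list, the counts were 16, 1, 5 and 4, and Sdk2 exceeded 22.9% of long genes. The Dscam density exceeded 54.0% of long genes at the q limit and 60.1% at the fold limit, and that of Dscaml1 70.5% and 71.6%. The Sdk1 density exceeded 79.2% of long genes at the q limit and 85.4% at the fold limit. Among genes of at least 300 kb it exceeded 95.9%, and among all autosomal protein-coding genes 69.4%. With a q of 0.1 or less, 32.1% of member summits passed, against 40.7% of the list. No member summits lay within 1 kb of each other or had a control level above 2 times the common one, so their counts, median fold and q share did not change under these settings. Merging summits within 1 kb in other genes moved the share of long genes below Sdk1 to 86.9%, Sdk2 to 76.7%, Dscam to 74.2% and Dscaml1 to 78.0%. Sequence windows at summits were not run, because no genome was used here. No paired analysis was possible because the libraries were pooled before peaks were called, and no replicate could be left out for the same reason.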
